A study of Rattus with 6 samples.

Results

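The transforming growth factor beta (TGF-beta) pathway was followed through 10 genes chosen by symbol: the ligands Tgfb1, Tgfb2 and Tgfb3, the receptors Tgfbr1, Tgfbr2 and Tgfbr3, and the intracellular mediators Smad2, Smad3, Smad4 and Smad7. All 10 were among the 20742 genes of the count table, and all 10 were among the 12882 genes with enough reads to be tested. Poly(A) RNA was sequenced from H9C2 cells, a line derived from embryonic rat heart, as 6 libraries, 3 of cells carrying a control plasmid and 3 of cells that overexpress, from a plasmid, RBM25, an RNA-binding protein that acts in splice site choice. The comparison asked which genes change in level when RBM25 is raised. The sources used here do not give the time after transfection, the promoter of the plasmids or each library's culture of origin, so p-values rest on a spread between libraries that may be technical only.

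TGF-beta ligands are secreted in a latent complex and are released outside the cell. The active ligand brings together the type II receptor (Tgfbr2) and the type I receptor (Tgfbr1), with betaglycan (Tgfbr3) as a co-receptor that presents ligand and matters most for TGF-beta2. The type I receptor phosphorylates SMAD2 and SMAD3, which join SMAD4 and enter the nucleus, and SMAD7 is an induced inhibitor that acts on the receptor. In heart and muscle cells the pathway is known for its part in matrix production and for holding back muscle differentiation.

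Libraries held 25543849 to 33130256 counted reads. Rbm25 was higher in each RBM25 library (55.9 to 60.1 CPM, a read count scaled to library size) than in any control library (44.5 to 49.2 CPM), a rise of 23.5% (log2 fold change 0.30 ± 0.047 SE, edgeR adjusted p = 0.0011; exact permutation p = 0.1, the smallest that 3 against 3 allows). Leaving out control replicate 2 ended that call (0.28 on the log2 scale, edgeR adjusted p = 0.0842). A gene with a related symbol, Rbm25l1, is named here after its values were seen. Its reads were 1, 1 and 3 in the control replicates and 147, 114 and 105 in the RBM25 replicates. That log2 difference of 5.97 had the smallest p of all tested genes (7.27e-12 after adjustment in the edgeR fit). Whether plasmid reads were counted under Rbm25l1 was not tested, so the 23.5% describes the Rbm25 entry only. RBM25 replicate 3 stood apart, since its counts gave a chi-square of 5.88 and 4.55 per degree of freedom against replicates 1 and 2 of its group, where the other pairs of replicates gave 3.07 to 3.32. Of 10 listed myoblast and skeletal muscle markers, 5 averaged at least 1 CPM. They were Casq2 (324 to 355 CPM), Myod1 (54.6 to 68.4 CPM), Myog (14.6 to 25.6 CPM), Des (8.28 to 10.9 CPM) and Myh3 (2.16 to 2.65 CPM). The other 5, Myf6 and Ckm among them, averaged under 1 CPM or had no row in the count table. Casq2 stood in this list although it encodes the cardiac form of calsequestrin, so it does not mark skeletal muscle alone. Of 10 cardiomyocyte markers, Tnnt2 (94.1 to 137 CPM), Nkx2-5 (13.5 to 17.2 CPM) and Gata4 (10.6 to 12.4 CPM) were expressed. The other 7 cardiomyocyte markers, Myh6 and Ryr2 among them, averaged under 1 CPM or had no row in the count table. The summed level of 10 listed muscle markers, 9 of them in the count table, was 420 to 429 CPM in controls and 440 to 451 CPM in RBM25 libraries, without overlap. That shift was carried by 1 gene, Casq2 (mean 329 CPM in controls and 353 CPM with RBM25); Myod1 averaged 60.4 and 61.5 CPM, and Myog averaged 21.4 and 18.4 CPM. The summed cardiomyocyte, fibroblast, leukocyte, endothelial and epithelial markers overlapped between the groups. Of 6 fibroblast markers, Col1a1 (12222 to 13595 CPM), Col1a2 (9209 to 10071 CPM) and Thy1 (515 to 545 CPM) were above 1 CPM. Pdgfra averaged under 1 CPM, and Dcn and Lum had no row in the count table. Of 6 epithelial markers, Krt7 (726 to 877 CPM) and Krt8 (25.0 to 29.8 CPM) were above 1 CPM, and the other 4 averaged under 1 CPM. Of 7 leukocyte markers, Cd14 (33.8 and 34.1 CPM) and Cd3e (5.72 and 5.35 CPM) were above 1 CPM, while Ptprc, Adgre1 and Itgam had no row in the count table. In bulk RNA, a change in the number of cells of a type and a change of RNA per cell cannot be told apart.

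Of the 10 genes, Tgfb2 rose with RBM25 and the other 9 did not pass the test. The count of 1 of 10 higher and 0 of 10 lower stood against a background of 0.357% of tested genes called higher and 0.0466% called lower, 0.404% in all (called means edgeR adjusted p under 0.05 over all tested genes). With an unadjusted p under 0.05, the same 1 of 10 stood against 11.2% of tested genes. The libraries of the groups did not overlap for 2 of the 10 genes, Tgfb2 and Smad2, where 16.2% of all tested genes showed no overlap. The median log2 fold change was 0.030 over the 10 genes and -0.0021 over all tested genes, and 7 of the 10 values were positive, as were 48.8% of those of all tested genes.

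The levels of the 10 genes, compared per unit of gene length, spanned 74.5-fold from the lowest to the highest. On the scale of the deposited FPKM values (fragments scaled by gene length and by library depth), the mean over 6 libraries was 168.8 for Tgfb3, 45.5 for Tgfb1 and 31.3 for Tgfb2, so the 3 ligands were the 3 most abundant of the set. Below them came Tgfbr2 (17.4 FPKM), Smad4 (15.2 FPKM), Smad3 (4.47 FPKM), Smad2 (3.93 FPKM), Tgfbr3 (2.95 FPKM), Tgfbr1 (2.31 FPKM) and Smad7 (2.27 FPKM). Neighbours in this order did not overlap across the 6 libraries, except Tgfbr1 and Smad7, of which Tgfbr1 was the higher in 3 of 6 libraries. The order depends on the gene lengths behind FPKM, whose definition is not stated, and a lack of overlap between libraries does not test those lengths. In CPM, which is not scaled by length, Tgfb2 (mean 152 in controls and 175 with RBM25) stood above Tgfb1 (71.0 and 72.5). Tgfb3 lay above 97.7% of the genes listed with an FPKM value, and Smad7, the lowest of the set, above 57.7%. Even the scarcest of the 10 had at least 366 reads in each library, so none was near the detection limit.

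**Figure D1:**
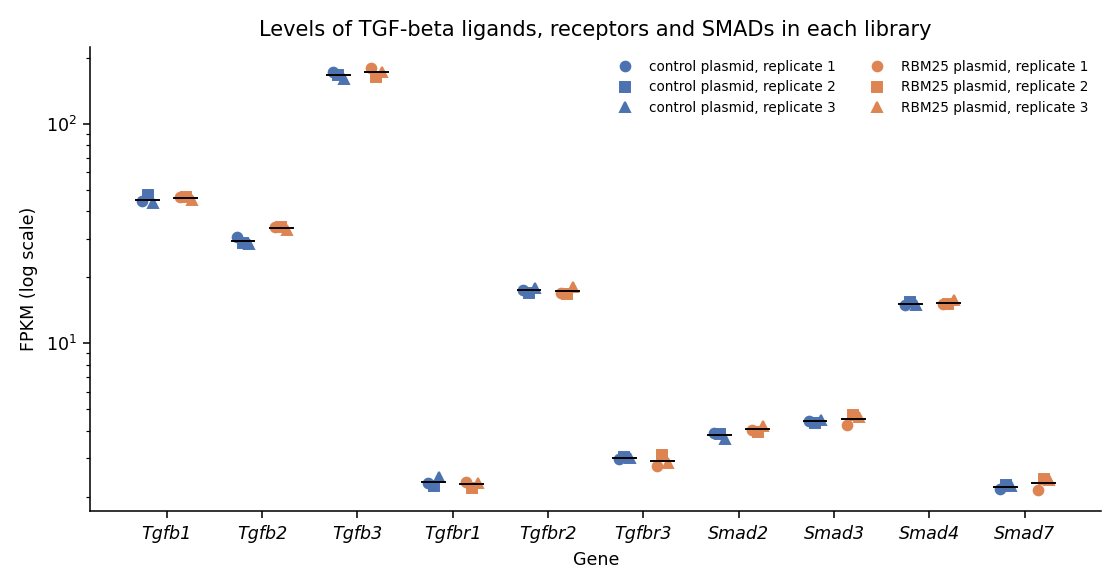
FPKM (log axis) of each of the 10 genes in each library, control plasmid in blue and RBM25 plasmid in orange, with marker shape for the replicate number and a black line at the group mean. The ligands sit highest, Tgfb3 near 169 FPKM, and the groups do not overlap for Tgfb2 and, by a narrow gap, Smad2.

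Tgfb2 encodes the ligand that depends most on betaglycan to reach its signalling receptors, and lies on chromosome 13 (build mRatBN7.2). Its level was 160, 150 and 147 CPM in control replicates 1, 2 and 3 and 178, 176 and 170 CPM in RBM25 replicates 1, 2 and 3. Every RBM25 library was above the highest control library, and control replicate 1 was the nearest to the RBM25 group. The group means were 152 ± 6.72 and 175 ± 3.86 CPM (SD, n = 3), a rise of 15.0% (a log2 fold change of 0.20 ± 0.035 SE, 95% interval 0.13 to 0.27; edgeR adjusted p = 0.0045). Reads of the gene totalled 12909 over the 3 controls and 16200 over the 3 RBM25 libraries. It ranked 13 by p among all tested genes, yet the change was small: 38 of the 52 called genes had a larger log2 fold change in size.

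The direction and size of the Tgfb2 difference were alike in all 15 alternative settings, with log2 fold changes from 0.18 to 0.24, but the call was not. It was lost without control replicate 2 (0.19, edgeR adjusted p = 0.159) and without control replicate 3 (0.18, edgeR adjusted p = 0.0844). The calls over all tested genes also fell in those fits, from 52 to 5 and to 21. The Tgfb2 call was also lost with limma-trend on log2(FPKM + 0.1), where the log2 fold change was 0.20 and the adjusted p 0.257. With RBM25 replicate 3 left out, the value was 0.22 and the edgeR adjusted p 1.56e-05. Among the listed markers given above, Casq2 also averaged higher with RBM25 (329 CPM in controls and 353 CPM with RBM25) but was not among the called genes. Its part in the Tgfb2 difference was not tested.

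**Figure D2:**
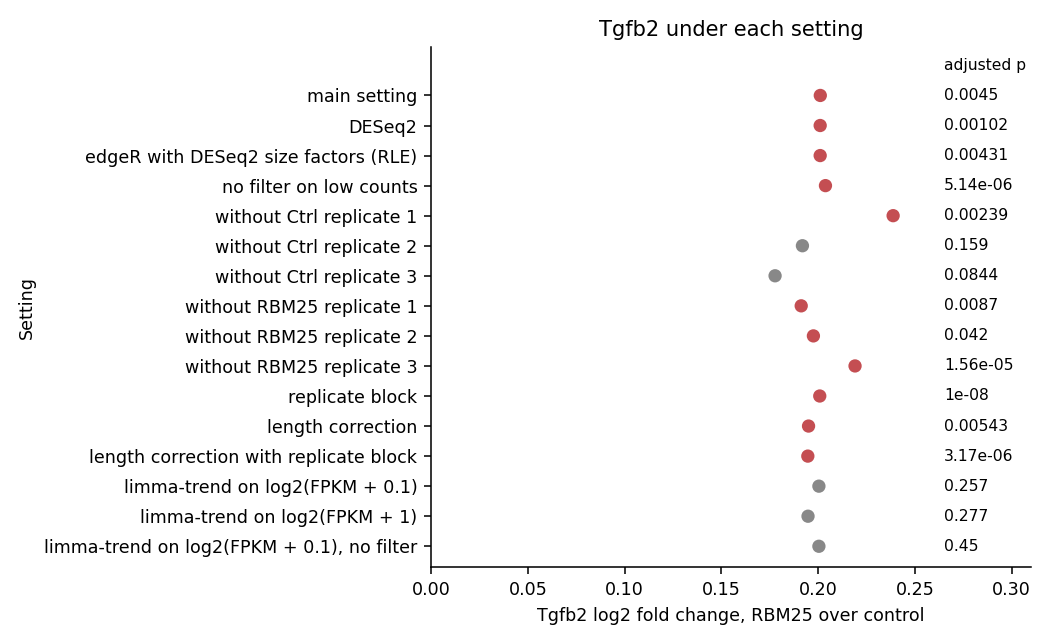
Log2 fold change of Tgfb2, RBM25 over control, on the horizontal axis under the main setting and 15 alternatives, with the adjusted p of each beside it. Red points passed the threshold of 0.05 and grey points did not; all values lie between 0.18 and 0.24, and 10 of the 15 alternatives passed.

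Tgfb1, the most widely expressed form of the ligand, stood at 70.2, 74.5 and 68.3 CPM in control replicates 1, 2 and 3. The RBM25 replicates 1, 2 and 3 gave 73.6, 73.5 and 70.5 CPM. The groups overlapped, since control replicate 2 was the highest of the 6 libraries. Its log2 fold change was 0.03 ± 0.040 (SE; 95% interval -0.05 to 0.11), with an edgeR adjusted p of 0.827.

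Tgfb3, the most abundant ligand in these cells, was at 642, 622 and 596 CPM in the control replicates. It was at 670, 614 and 635 CPM in the RBM25 replicates, so that RBM25 replicate 2 fell below control replicates 1 and 2. The log2 fold change was 0.04 ± 0.034 (SE; 95% interval -0.03 to 0.11; edgeR adjusted p = 0.665). For both genes the upper end of the interval lay below the estimate for Tgfb2, which was not a test of the difference between genes.

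The ligand balance was read within each library, where library size cancels out. Tgfb3 made up 69.1 ± 0.459% of the summed FPKM of the 3 ligands in controls and 68.3 ± 0.981% in RBM25 libraries, Tgfb1 18.7 ± 0.729% and 18.3 ± 0.600%, and Tgfb2 12.1 ± 0.276% and 13.4 ± 0.381% (SD, n = 3). For Tgfb2 the shares were 12.4, 11.8 and 12.2% in control replicates 1, 2 and 3 and 13.1, 13.8 and 13.2% in RBM25 replicates 1, 2 and 3, without overlap. The order Tgfb3, Tgfb1, Tgfb2 in FPKM was the same in all 6 libraries. The sum of the 3 ligands was 240 ± 8.02 FPKM in controls and 251 ± 7.40 FPKM with RBM25, and the groups overlapped.

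The ratio of Tgfb2 to Tgfb1 in FPKM was 0.687, 0.608 and 0.650 in control replicates 1, 2 and 3 and 0.730, 0.725 and 0.731 in RBM25 replicates 1, 2 and 3. All 3 RBM25 libraries were above all 3 controls and lay close together, while the controls were spread. The difference in log2 ratio was 0.17 ± 0.051 (SE; exact permutation p = 0.1, two-sided, the smallest that 3 against 3 allows; Benjamini-Hochberg adjusted over the 3 ratios 0.15). The ratio of Tgfb2 to Tgfb3 was 0.178, 0.172 and 0.176 in the controls and 0.190, 0.205 and 0.192 in the RBM25 libraries, again without overlap (log2 difference 0.16 ± 0.038 SE; exact permutation p = 0.1; adjusted 0.15). The ratio of Tgfb3 to Tgfb1 was 3.87, 3.53 and 3.69 in controls and 3.85, 3.53 and 3.81 with RBM25 (log2 difference 0.01 ± 0.054 SE; exact permutation p = 0.9; adjusted 0.9), and its sign turned when control replicate 2 (-0.02), RBM25 replicate 1 (-0.0095) or RBM25 replicate 3 (-0.0022) was left out. No ratio could reach 0.05 in this design.

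**Figure D3:**
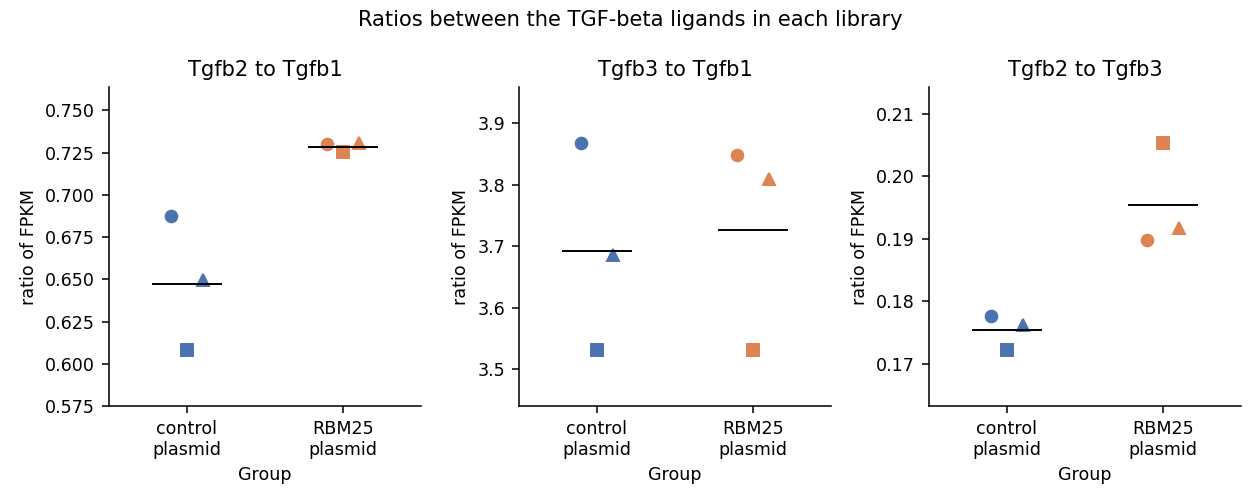
Ratio of FPKM between pairs of ligands in each library, control plasmid in blue and RBM25 plasmid in orange, with marker shape for the replicate number and a black line at the geometric mean of the group; the vertical axes do not start at 0. Both ratios with Tgfb2 as the numerator are higher in every RBM25 library than in any control, and the ratios of Tgfb3 to Tgfb1 overlap.

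None of the 3 receptors passed the test, and all 3 point estimates were slightly below 0. Tgfbr2, the ligand-binding type II kinase, was at 95.7, 93.6 and 98.3 CPM in controls and 93.3, 92.5 and 98.6 CPM with RBM25, with the highest and the lowest of the 6 libraries both in the RBM25 group. Its log2 fold change was -0.02 ± 0.037 (SE; 95% interval -0.09 to 0.06; edgeR adjusted p = 0.908). Tgfbr1, the type I kinase that acts on SMAD2 and SMAD3, was at 14.4, 14.0 and 15.3 CPM and at 14.6, 13.7 and 14.2 CPM. These ranges overlapped (its log2 fold change -0.04 ± 0.073 SE, 95% interval -0.19 to 0.11; edgeR adjusted p = 0.89).

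Tgfbr3, the betaglycan co-receptor, was at 22.4, 22.9 and 22.7 CPM in controls and at 21.1, 23.4 and 21.4 CPM in RBM25 libraries, where replicate 2 exceeded all controls and replicates 1 and 3 fell below them. The log2 fold change was -0.04 ± 0.062 (SE; 95% interval -0.17 to 0.08; edgeR adjusted p = 0.842). The signs of the small Tgfbr2 and Tgfbr1 differences were not stable: under the alternatives Tgfbr2 ranged from -0.05 to 0.0043 and Tgfbr1 from -0.07 to 0.0035, with no call. Per unit of length, Tgfbr2 exceeded Tgfbr1 by 7.46 ± 0.182 times in controls and by 7.58 ± 0.298 times with RBM25 (SD, n = 3), and Tgfbr3 by 5.83 ± 0.177 and 5.96 ± 0.474 times.

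**Figure D4:**
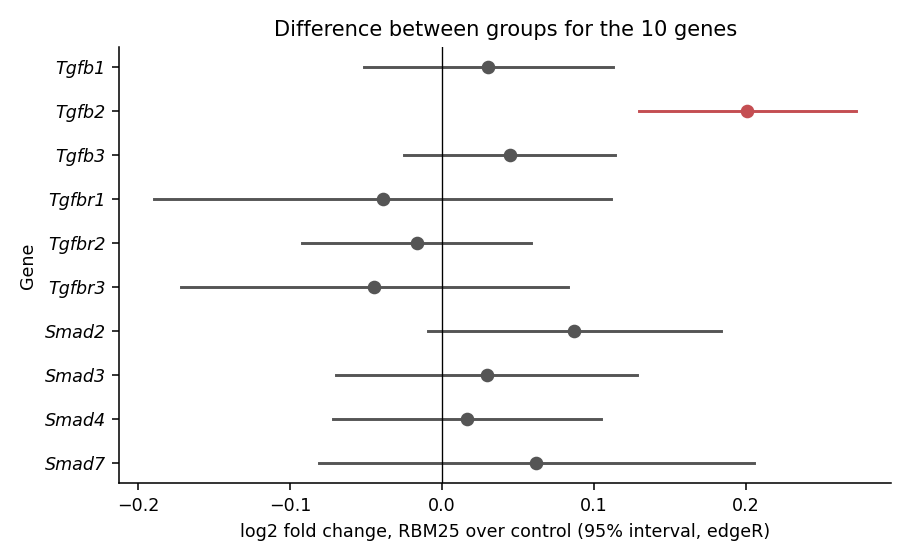
Log2 fold change of each of the 10 genes, RBM25 over control, with its 95% interval from the edgeR fit; red marks the gene that passed the adjusted threshold and grey the others. The interval of Tgfb2 runs from 0.13 to 0.27, and the other 9 intervals include 0.

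Among the SMADs the nearest to a difference was Smad2, one of the receptor-activated pair. It was at 42.5, 42.1 and 40.0 CPM in control replicates 1, 2 and 3 and at 44.0, 43.0 and 45.4 CPM in RBM25 replicates 1, 2 and 3. The groups did not overlap, but the gap between control replicate 1 and RBM25 replicate 2 was under 1 CPM, and the difference did not pass (log2 fold change 0.09 ± 0.047 SE, 95% interval -0.0092 to 0.18; unadjusted p = 0.0744, edgeR adjusted p = 0.502). Its log2 fold change was positive in all 15 alternatives, from 0.06 to 0.11, with no call.

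Smad3, the other receptor-activated SMAD and the one that binds DNA directly in its main form, was at 43.4, 42.6 and 43.8 CPM in controls and at 41.6, 46.3 and 44.8 CPM with RBM25. RBM25 replicate 1 was the lowest library and RBM25 replicate 2 the highest. The log2 fold change was 0.03 ± 0.048 (SE; 95% interval -0.07 to 0.13; edgeR adjusted p = 0.868), and its sign turned when RBM25 replicate 2 was left out (-0.0026). The ratio of Smad3 to Smad2 in FPKM was 1.16 ± 0.0514 in controls and 1.12 ± 0.0732 in RBM25 libraries (SD, n = 3), with Smad3 the higher in all 6 libraries.

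Smad4, the common partner, was at 49.7, 51.2 and 49.1 CPM and at 50.4, 49.9 and 51.5 CPM, a log2 fold change of 0.02 ± 0.043 (SE; 95% interval -0.07 to 0.10; edgeR adjusted p = 0.926). Per unit of length it exceeded Smad3 by 3.42 ± 0.123 times and Smad2 by 3.96 ± 0.105 times in controls (SD, n = 3). With RBM25 these ratios were 3.39 ± 0.192 and 3.77 ± 0.0415. Smad7, the inhibitory SMAD that TGF-beta itself induces, was at 16.4, 17.0 and 16.8 CPM in controls and at 16.2, 18.3 and 17.9 CPM with RBM25. RBM25 replicate 1 was the lowest of the 6 libraries for Smad7, and the log2 fold change was 0.06 ± 0.070 (SE; 95% interval -0.08 to 0.21; edgeR adjusted p = 0.792). Over the 9 genes that did not pass, the lowest end of any interval was 0.877-fold (Tgfbr1) and the highest 1.15-fold (Smad7); for each gene, changes inside its own interval could not be told from none with these libraries.

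Around these genes, 141 further members of the pathway in 9 lists were read from the same fit. Of these, 131 had a row in the count table and 112 could be tested, of which 1 was higher (Postn), 0 were lower and 111 did not pass, against the background of 0.357% called higher. Their median log2 fold change was 0.018, and the groups did not overlap for 20 of the 112, near the 16.2% of all tested genes. DESeq2 also called 1 of them, and 17 had an unadjusted edgeR p under 0.05, against 11.2% of all tested genes.

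TGF-beta target genes gave the 1 call. Postn encodes periostin, a matrix protein that TGF-beta induces. Postn stood at 6.63, 5.82 and 5.46 CPM in control replicates 1, 2 and 3 and at 9.88, 7.68 and 9.19 CPM in RBM25 replicates 1, 2 and 3, without overlap. Its log2 fold change was 0.58 ± 0.11 (SE), with an edgeR adjusted p of 0.00922. As for Tgfb2, this call was lost without control replicate 2 (0.57, edgeR adjusted p = 0.181) and without control replicate 3 (0.52, edgeR adjusted p = 0.108). It was lost as well in the 3 limma-trend fits on FPKM (log2 fold changes of 0.55, 0.38 and 0.55; adjusted p = 0.283, 0.287 and 0.502). The other 31 of 32 tested targets did not pass, and 4 of the 32 had an unadjusted edgeR p under 0.05. Some are named here after their values were seen. Cdkn1a, an inhibitor of the cell cycle, averaged 350 CPM in controls and 325 CPM with RBM25, without overlap (-0.11 ± 0.032 SE on the log2 scale; edgeR adjusted p = 0.138). The others named are Ccn2, connective tissue growth factor (log2 fold change 0.12 ± 0.066 SE), Col1a1, a chain of type I collagen (-0.03 ± 0.037), Acta2, smooth muscle actin (0.05 ± 0.035), and Tgfbi (SE 0.035, at 310 CPM in both groups), which is named for its induction by TGF-beta. The list's median was 0.024, with 19 values positive and 13 negative.

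Beside the list counts that follow, 11.2% of all tested genes had an unadjusted edgeR p under 0.05 and 48.8% had a positive value. Genes that store or release the latent ligand did not pass in any of 14 tested cases (6 positive, 8 negative, median -0.0075, and 2 with an unadjusted edgeR p under 0.05). The smallest p in that list was that of Lrrc32, a cell-surface anchor for latent TGF-beta also called GARP, at 15.1 CPM in controls and 13.2 CPM with RBM25 (-0.19 ± 0.076 SE on the log2 scale, edgeR adjusted p = 0.312). None of 6 tested co-receptors and extracellular modulators passed (median -0.022; 2 with an unadjusted p under 0.05). Bambi, a decoy receptor that lacks the kinase domain, had the smallest p there, at 2.83, 3.55 and 3.72 CPM in controls and 4.12, 5.18 and 4.19 CPM with RBM25 (0.41 ± 0.14 SE on the log2 scale, edgeR adjusted p = 0.244). In the list of SMAD regulators, 0 of 20 passed, 5 had an unadjusted p under 0.05, 14 values were positive and the median was 0.050. Its leading member was Usp9x, a deubiquitinase that acts on SMAD4, at 153 and 166 CPM (0.12 ± 0.035 SE on the log2 scale, edgeR adjusted p = 0.136). The non-SMAD arm through the kinase TAK1 gave 0 calls among 14 genes (median -0.012; 0 with an unadjusted p under 0.05), with Tab2, an adaptor of that kinase, at -0.07 ± 0.040 (SE; edgeR adjusted p = 0.527).

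The activin and bone morphogenetic protein (BMP) branches share SMAD4 with TGF-beta, and activins also signal through SMAD2 and SMAD3. No member of their 4 lists passed: 0 of 6 ligands (median 0.040), 0 of 6 antagonists (median 0.053), 0 of 7 receptors (median 0.019) and 0 of 7 BMP SMADs and Id genes (median 0.18). At an unadjusted edgeR p under 0.05 these counts were 1, 2, 1 and 0. Inhba, the activin A subunit, came closest, at 36.5, 33.6 and 33.0 CPM in controls and 42.0, 37.1 and 40.0 CPM with RBM25. Its groups did not overlap, and the value of 0.21 ± 0.055 (SE) on the log2 scale did not pass (edgeR adjusted p = 0.0832), although it did with no filter on low counts (adjusted p = 0.0113), without RBM25 replicate 3 (adjusted p = 0.0289) and in both fits with a replicate block. Bmpr2, the type II BMP receptor, stood at 0.12 ± 0.042 (SE; edgeR adjusted p = 0.249) and Id4 at 0.18 ± 0.098 (SE; edgeR adjusted p = 0.501).

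The Id genes, which encode inhibitors of myogenic helix-loop-helix factors and are textbook BMP targets, differed among the RBM25 libraries themselves; Id1, Id2 and Id3 were singled out after their values were seen. Id3 was at 119, 117 and 111 CPM in control replicates 1, 2 and 3 and at 165, 143 and 101 CPM in RBM25 replicates 1, 2 and 3. RBM25 replicates 1 and 2 were above every control and RBM25 replicate 3 below every control, and the same held for Id1 (31.9 to 36.1 CPM in controls and 49.7, 42.1 and 30.3 CPM with RBM25) and Id2 (8.50 to 10.6 CPM in controls and 15.8, 13.9 and 7.48 CPM with RBM25). With all libraries the edgeR adjusted p was 0.729 for Id1, 0.745 for Id2 and 0.743 for Id3. Without RBM25 replicate 3 all 3 passed, with log2 fold changes of 0.43, 0.63 and 0.42 (edgeR adjusted p = 7.79e-06, 3.55e-06 and 4.67e-04). That fit called 352 genes, against 52 with all libraries. The 3 Id genes were singled out for this split, so their p-values in that fit are a description only. Tgfb2 showed no such split, its level in RBM25 replicate 3 being above all controls.

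**Figure D5:**
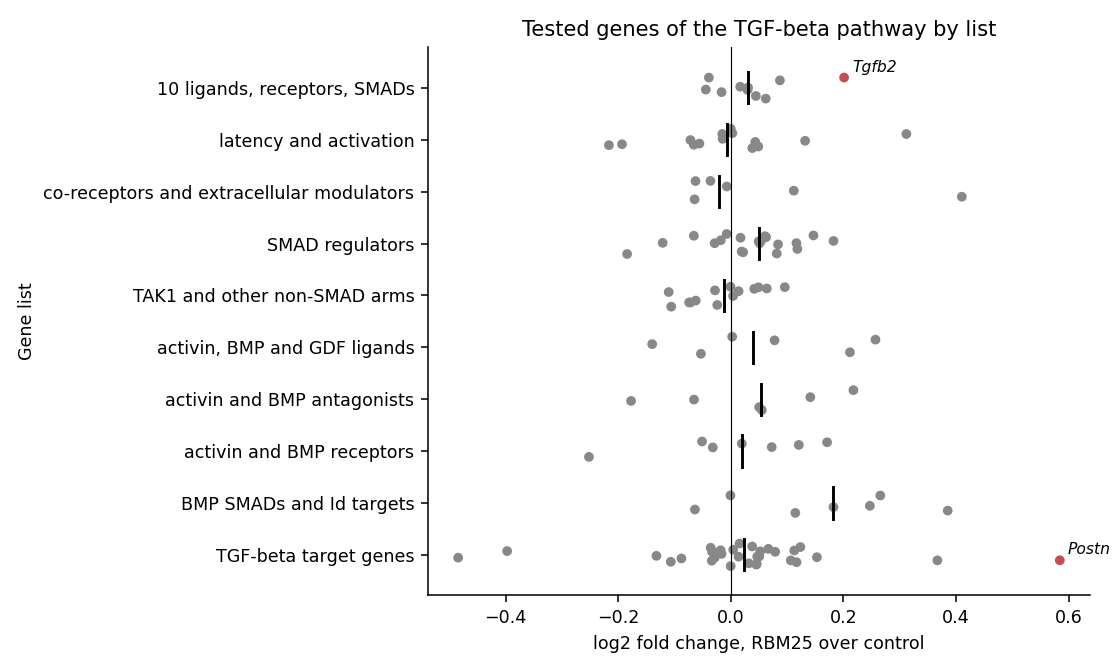
Log2 fold change, RBM25 over control, of every tested gene (1 point per gene, spread vertically for display) in the 10-gene set and in 9 lists of other pathway genes, with a black bar at each list's median. Red points, labelled Tgfb2 and Postn, passed the adjusted threshold; grey points did not.

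Across the 6 libraries, the genes whose log2 CPM followed that of Tgfb2 most closely, out of 9066 whose mean log2 CPM was 3 or more, were LOC100909405 (Pearson r = 0.998), Dennd5b (r = 0.992) and Ctsl, the protease cathepsin L (r = 0.990). The genes share the libraries and their depth, and the 6 points include the difference between the groups, so these values are a description. None of the 3 passed the test itself (log2 fold change 0.14 ± 0.076, 0.15 ± 0.051 and 0.06 ± 0.030 SE; edgeR adjusted p = 0.53, 0.24 and 0.456). Among the other 9 genes of the set, r with Tgfb2 was highest for Smad2 (0.792) and Tgfb3 (0.605) and negative for the 3 receptors, from -0.45 to -0.38.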

How the data were processed

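Per the labels' protocols, poly(A) RNA was captured and made into strand-marked libraries sequenced as read pairs. The submitters' processing notes name HISAT2, DESeq2 and the build mRatBN7.2; the sources used here do not give the counting program, annotation or strand setting. The deposited counts are whole reads per gene (20742 genes), not normalized by the authors. The deposited FPKM values (20395 genes) were scaled by length and depth by the authors, with an unstated length definition.

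The test on counts was edgeR 4.0.16 (R 4.3.3): filterByExpr (minimum count 10, leaving 12882 genes), TMM scaling, a robust quasi-likelihood fit on group alone, and Benjamini-Hochberg adjustment over all tested genes. SE is the size of the log2 fold change divided by the square root of F. CPM is scaled by TMM. Ligand ratios used FPKM with no pseudocount and exact permutation tests (SciPy 1.17.1). Alternatives were DESeq2 1.42.0, other scaling, filters, a length correction, a replicate block, limma 3.58.1 on FPKM, and leaving out each library. The fit was tested on simulated data. Replicates differed beyond sampling noise (chi-square per degree of freedom at least 3.07), and each library counted as 1 sample. That difference cannot tell separate cultures from separate preparations of 1 culture. The common coefficient of variation between replicates in the edgeR fit was 3.91%. Of the 141 listed pathway genes, 131 matched by symbol.

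The 10 genes and the lists were chosen with earlier results of these data known. Named genes are the 10, Rbm25, up to 3 called members per list (or the member with the smallest p) and the 3 genes most like Tgfb2; others are marked, and some genes of the lists are counted but not reported here by name. The table of gene positions is of another assembly (GRCr8), so no coordinates or sequences are given. In it, annotated genes overlap Tgfb2 (a snoRNA), Tgfbr3 (long non-coding RNAs) and Smad2 (a pseudogene), so the counts of these 3 genes are uncertain to that extent.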

Additional observations from a re-analysis of the deposited data

How the results depend on the processing

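Of the 10 genes, 9 passed under none of the 15 alternatives, and Tgfb2 passed in 10, with log2 fold changes of 0.18 to 0.24. The count of the 10 genes called was 1 in those 10 and 0 without control replicate 2, without control replicate 3 and in the 3 limma-trend fits on FPKM (adjusted p for Tgfb2 0.257 with a pseudocount of 0.1, 0.277 with 1 and 0.45 with no filter). With 1 library left out at a time it was 0 to 1, and the count over all tested genes was 5 to 352, against 52 in the main setting. That count was 205 with no filter on low counts, and 4, 2 and 6 with limma-trend on log2(FPKM + 0.1), on log2(FPKM + 1) and on log2(FPKM + 0.1) with no filter.

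Replicate numbers of the labels were tried as a block. The correlation of deviations between same-numbered libraries was 0.042, -0.066 and -0.0074, so the libraries shared only a number. The replicate block gave 436 calls over all genes, and 331 together with the length correction; the log2 fold change of Tgfb2 was 0.20 and 0.19 in those fits. The block alone also brought Usp9x (adjusted p = 0.00515), Inhba (0.00293), Id1 (6.77e-04) and Id2 (0.00577) past the threshold; with the length correction added, Inhba passed (0.0136) and Usp9x, Id1 and Id2 did not (0.089, 0.243 and 0.157). In the block form the ligand ratios kept their differences of 0.17, 0.01 and 0.16, with a smallest possible sign-flip p of 0.25.

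Rbm25 did not pass without control replicate 2 (0.28, with 0.27 to 0.35 over the 6 fits that each left out 1 library) or with limma-trend on FPKM (0.30, 0.28 and 0.30 with a pseudocount of 0.1, with 1 and with no filter). The log2 difference in the ratio of Tgfb3 to Tgfb1 was -0.019 to 0.052 with 1 library left out, while that of Tgfb2 to Tgfb1 was 0.12 to 0.21 and that of Tgfb2 to Tgfb3 0.12 to 0.18. For the calls that were lost, the cause was not tested, beyond the loss of a library where 1 was left out.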
